A study of Mus musculus with 10 samples.

Results

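The features described here are the cathepsins, calpains, caspases and protease inhibitors on a spotted oligonucleotide array of the mouse. They were taken as every feature whose single gene symbol begins with Cts and a letter, with Capn, with Casp and a digit or with Serpin, or is Cstb, Cst3 or Cast. The rule found 58 of 7776 features, which stand for 56 genes, and the same 58 were found after the symbols were updated through RefSeq. They are 15 cathepsins, 12 features of calpains and their inhibitor calpastatin, 9 features with caspase symbols, 20 features of 18 serpins and 2 cystatins. Serpinb2 and Serpinh1 have 2 features each. Casp8ap2, which the rule places among the caspases, encodes a protein that binds caspase-8 and is not a protease.

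The study compared gene expression in quadriceps muscle between 5 inbred strains of untreated wild-type mice, to learn how much the genetic background contributes. The strains were CBA/CaOlaHsd (CBA), C57Bl/10ScSnOlaHsd (BL10), C57Bl/6JOlaHsd (BL6), DBA/2OlaHsd (DBA) and BALB/cOlaHsd (BALB). There were 2 male animals of each strain, killed at 8 weeks of age, and BL10 and BL6 are related substrains of the C57 line. Total RNA of whole muscle from 10 animals was set on 10 arrays, each with an animal of one strain in Cy5 and an animal of another strain in Cy3. Whole muscle holds fibres, connective tissue, vessels, blood and macrophages, so that fewer cells of a type and less RNA per cell cannot be told apart.

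Cathepsins are the proteases of the lysosome, most of them cysteine enzymes, with cathepsin D and E (aspartic) and cathepsin A and G (serine) as exceptions. Calpains are calcium-dependent cysteine proteases of the cytosol. In muscle, μ-calpain and m-calpain (Capn1 and Capn2 with the shared small subunit Capns1) are held in check by calpastatin, while Capn3 is the calpain particular to skeletal muscle, where its loss causes a limb-girdle dystrophy. Caspases cut after aspartate: Casp2, Casp8 and Casp9 start apoptosis, Casp6 is an executioner, and Casp1, Casp4 and Casp12 belong to the inflammatory branch. Serpins trap serine proteases, among them those of coagulation and of granules, and cystatins are reversible inhibitors of the cysteine cathepsins.

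Before the results, 2 arrays have to be set aside. The arrays labelled BL6 2 against CBA 1 and BALB 1 against CBA 2 (the strain with the number of the animal) carry identical values throughout, under labels that name different animals. Both were left out, which leaves 8 arrays. The 8 arrays form a smaller chain of 3, which joins CBA 1, BL10 1, BALB 2 and BL6 2, and a larger chain of 5, which joins CBA 2, BL10 2, DBA 1, BL6 1, DBA 2 and BALB 1. Each CBA animal is then on 1 array only, in Cy5 against BL10, so no CBA level can be had without an estimate of the dye, and both DBA animals lie in the larger chain. Correlation of duplicate spots within the 8 arrays was 0.535 to 0.783 for these 58 features and 0.645 to 0.857 over all features. The deposited values are log ratios without brightness, so no feature can be called present or absent in the muscle, and neither can the markers of muscle fibres or of other cells.

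All values below are on the log2 scale. A ratio is Cy5 over Cy3 on 1 array, centred on the median of that array. A strain level is the estimate from limma relative to the mean of the 5 strains, freed of a dye effect for each feature. The SE of a difference between 2 strains had a median over all features of 0.144 to 0.296, and was largest for CBA against BL6.

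A difference between a pair of strains passed an FDR of 10%, the threshold of the study, for 2 genes only. These were Capns1 and Casp6, both between BL6 and BALB. Neither gene passed over the 5 strains together, with adjusted p-values of 0.221 and 0.263 from limma's moderated F test. Their upstream sequences are shown because these are the genes that the comparisons turn on. Each is the 250 bases before an annotated RefSeq start in GRCm38.p6. For Capns1 this is chr7:30195154-30195403 on the minus strand, inside the annotated span of the gene (chromosome 7, 30186934 to 30198883), which longer transcript models extend. For Casp6 it is chr3:129901165-129901414 on the plus strand, directly before the gene (chromosome 3, 129901415 to 129914112). Capitals mark a GC box.
Capns1: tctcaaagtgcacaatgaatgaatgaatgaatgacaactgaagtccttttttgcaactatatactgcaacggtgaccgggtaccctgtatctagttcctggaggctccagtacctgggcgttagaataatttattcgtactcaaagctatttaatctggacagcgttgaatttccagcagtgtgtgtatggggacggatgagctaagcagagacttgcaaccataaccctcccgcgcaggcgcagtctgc
Casp6: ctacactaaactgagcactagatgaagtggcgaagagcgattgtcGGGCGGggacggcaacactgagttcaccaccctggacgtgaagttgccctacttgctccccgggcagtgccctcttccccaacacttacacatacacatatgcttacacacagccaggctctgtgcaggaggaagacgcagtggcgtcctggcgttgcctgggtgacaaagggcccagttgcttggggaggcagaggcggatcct

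These windows were searched on both strands for the E-box CACGTG, for the sequence of the CCAAT box, for the GC box GGGCGG and for the TATA box with the letters TATAAA, and no match in them overlaps another. Casp6 has 1 match, the GC box GGGCGG, and Capns1 has none. A GC box was in 32.7% of all 32851 annotated windows of this length and in 30% of the 60 windows of the genes described here, of which 49 of 56 have an entry. The E-box was in 6.02% of all windows and in 5 of these 60, those of Casp1, Ctsa, Ctsd, Ctsf and Ctsl. The matches describe the letters only, and the series does not measure binding or methylation at them.

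Across the 5 strains, differences in these proteases and inhibitors were small. The range from the highest to the lowest strain had a median of 0.52 over the 58 features, against 0.45 over all 7697 features tested. It exceeded 1 for 1 feature, Ctsz, at 1.30, which is 1.72% of these features, where 5.7% of all features exceeded 1. None of the 58 passed limma's moderated F test between strains at an FDR of 10%, and 10 of all 7697 features, 0.13%, did. At an unadjusted p under 0.05 the F test listed 10 of them (17.2%), against 14% of all features. None passed for a strain against the mean of the other 4, where 0.143% of all features did. In the 10 pairs of strains, 2 of the 58 passed in any pair (3.45%), a share below the 4.6% of all features.

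Strain levels of all the features are shown together by class.

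**Figure D1:**
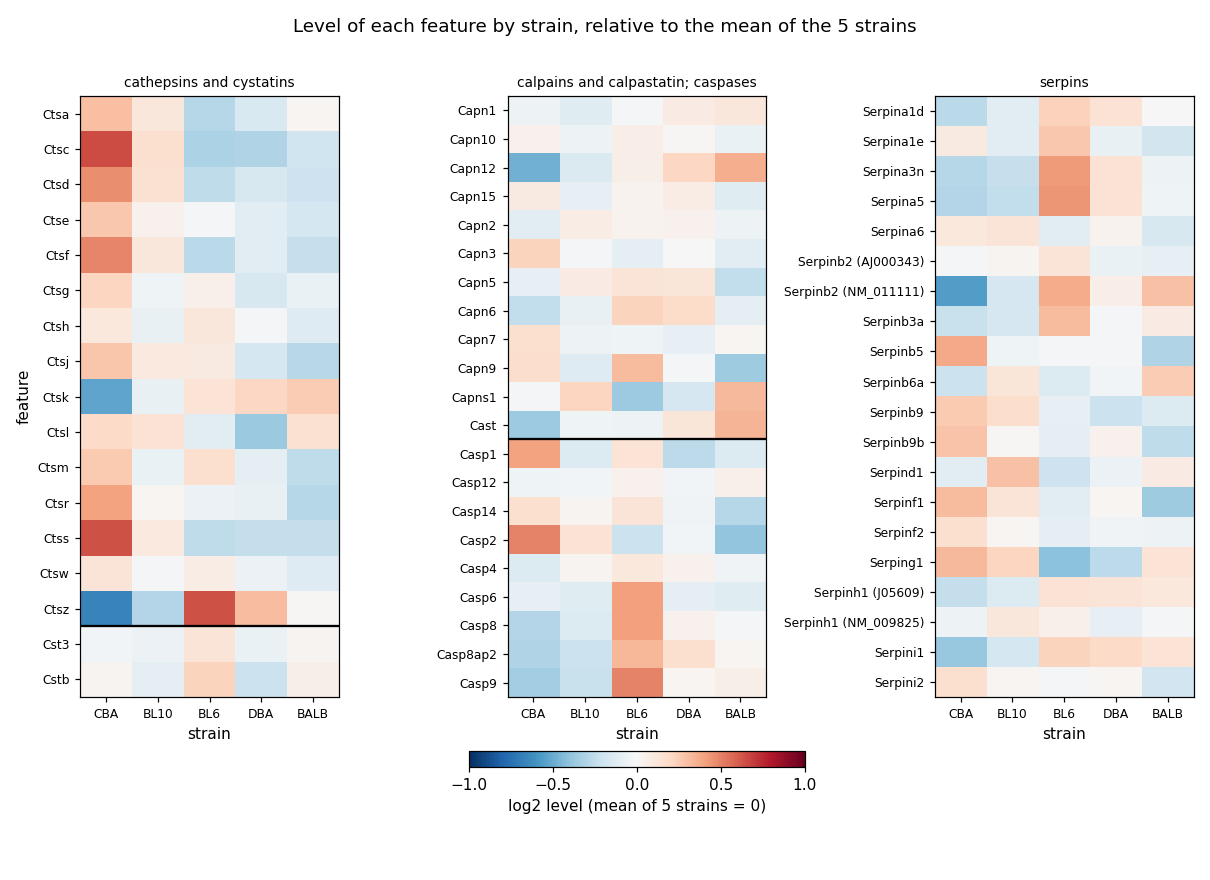
Strain levels of the 58 features (rows) in the 5 strains (columns), as log2 relative to the mean of the 5 strains, with cathepsins and cystatins, calpains with calpastatin and caspases, and serpins in separate panels. Ctsz has the widest range, from −0.66 in CBA to 0.64 in BL6, and 12 of 15 cathepsins are highest in CBA.

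CBA was the strain farthest from the mean for 28 of the 58 features (48.3%, against 44.1% of all features), with 17 high and 11 low. BL6 was the farthest for 13 (22.4%, against 26.7%), of which 11 were high. BALB was the farthest for 13 (22.4%, against 16.6%), of which 11 were low. BL10 was the farthest for 3 (5.17%, against 6.87%) and DBA for 1 (1.72%, against 5.7%). The split into high and low was not counted over all features. DBA was the highest strain for none, where it was for 11.4% of all features. The median SE of a strain level was 0.19 in CBA and between 0.10 and 0.13 in the other strains, so CBA levels were the least certain.

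Among the calpains, Capns1 (NM_009795), the small regulatory subunit that μ-calpain and m-calpain share, was lower in BL6 than in BALB. The ratio was 0.91 on the array of BALB 2 against BL6 2, 0.67 for DBA 1 against BL6 1 and 0.21 for BL6 1 against DBA 2. It was −0.39 for DBA 2 against BALB 1, 0.34 for BL10 1 against BALB 2 and 0.53 for BL10 2 against DBA 1. The arrays of CBA against BL10 gave 0.07 and 0.08. With the dye effect of 0.31 removed, the BL6 animals stood at −0.43 and −0.41 and the BALB animals at 0.36 and 0.19, as levels within their chains.

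Each BL6 animal was thus the lowest of its chain for Capns1, below the BALB animal there. The chains share no animal, and levels in each are relative to its own CBA, BL10, BL6 and BALB animals. Animals of different chains are therefore compared only through that zero. Strain levels of Capns1 were −0.36 in BL6 (SE 0.13), −0.16 in DBA, −0.01 in CBA, 0.22 in BL10 and 0.32 in BALB (SE 0.13). The difference of BL6 from BALB was −0.69 (SE 0.15, 95% interval −1.02 to −0.35), 1.61-fold, with an adjusted p of 0.0616 from limma. In the pair of BL6 and BALB, 4.52% of all features passed, 3.75% lower in BL6 and 0.767% higher. DBA and BL6, the neighbours at the low end, and BL10 and BALB at the high end did not differ beyond their spread. The difference was −0.60 in the smaller chain and −0.79 in the larger chain, and −0.67 in a combination of 3 arrays in which the dye effect cancels. Duplicate spots of Capns1 correlated at 0.947 over the arrays and gave −0.80 and −0.58 alone, each with an adjusted p above the threshold (0.114 and 0.138 from limma).

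The call on Capns1 depended on the arrays used. It held when the values common to both identical arrays were entered once, under either label (−0.64 and −0.68) and was lost with all 10 arrays as labelled (−0.53, adjusted p = 0.273 from limma). It was also lost without either CBA animal (−0.70), either BL10 animal (−0.71), BL6 2 (−0.75) or BALB 1 (−0.45), with adjusted p-values from limma of 0.109 to 0.212, and it held at −1.10 without BL6 1, −0.67 without DBA 1 and −1.05 without BALB 2, where 2692, 3072 and 3615 of all 7697 features passed, against 348 with all 8 arrays.

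The other 11 features of this class did not pass in any comparison. Capn12 (NM_021894), a calpain described in hair follicles, had the most regular order of the strains: −0.48 in CBA, −0.14 in BL10, 0.06 in BL6, 0.21 in DBA and 0.36 in BALB, with an unadjusted p of 0.0298 and an adjusted p of 0.309 from limma. Its ratios were above 0 on all 8 arrays, from 0.05 to 0.86, since a dye effect of 0.55 lay over a strain range of 0.84. With all 10 arrays the level in CBA was 0.07 in place of −0.48, so the low end of that order was not kept. Capn9 (U89513), a calpain of the digestive tract, was 0.32 in BL6 and −0.35 in BALB, a difference of 0.67 (SE 0.21) with an adjusted p of 0.131 from limma. The BL6 animals stood at 0.05 and 0.65 for Capn9, and the spots alone gave 0.33 and 0.98.

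Calpastatin (Cast, AB026997), the inhibitor of both ubiquitous calpains, was ordered like Capns1 only at the BALB end. Its levels were −0.37 in CBA, −0.04 in BL10, −0.05 in BL6, 0.12 in DBA and 0.34 in BALB. The BALB animals stood at 0.47 and 0.27 and the BL6 animals at −0.01 and −0.07, a difference of BL6 from BALB of −0.39 (95% interval −0.72 to −0.06, adjusted p = 0.182 from limma). Capn3 (NM_007601), the muscle calpain, had levels of 0.22 in CBA and −0.10 in both BL6 and BALB, with −0.02 in BL10 and −0.00 in DBA. The CBA animals at 0.10 and 0.37 and the BL6 animals at −0.24 and 0.06 lay apart within their strains, and its unadjusted p was 0.656. The catalytic subunits had narrow ranges, 0.23 for Capn1 and 0.18 for Capn2, against 0.69 for Capns1. Their duplicate spots correlated at −0.03 and 0.32, below the 0.947 of Capns1. The remaining calpains, Capn5, Capn6, Capn7, Capn10 and Capn15, had ranges of 0.13 to 0.47 and unadjusted p-values of 0.215 to 0.854.

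Differences between BL6 and BALB are set out for each feature with its interval.

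**Figure D2:**
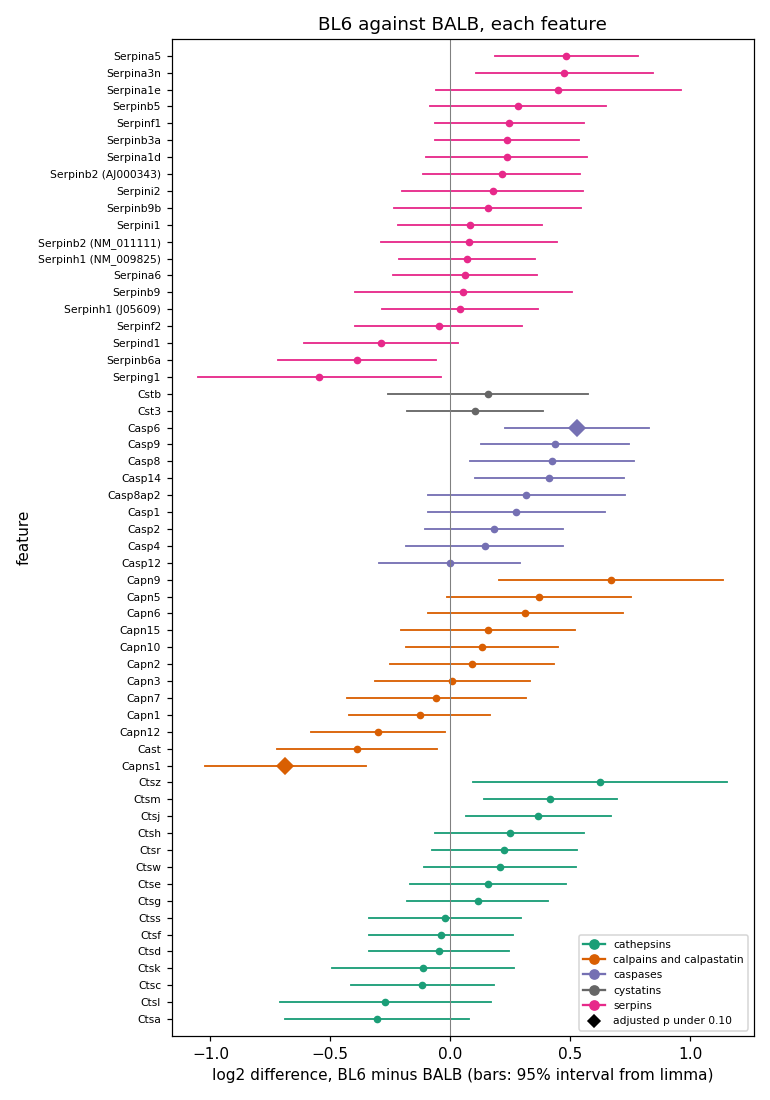
Difference of BL6 from BALB for each of the 58 features, in log2 with 95% intervals from limma, coloured by class. Diamonds mark the features with an adjusted p under 0.10, which are Capns1 at −0.69 and Casp6 at 0.53.

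At an unadjusted p under 0.05, 15 of the 58 differed between BL6 and BALB (25.9%, against 22% of all features), 10 higher in BL6 (17.2%, against 9.78%) and 5 lower (8.62%, against 12.2%). Those higher in BL6 were Casp6, Casp8, Casp9, Casp14, Serpina5, Serpina3n, Capn9, Ctsm, Ctsj and Ctsz, and those lower were Capns1, Cast, Capn12, Serpinb6a and Serping1.

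Among the caspases, Casp6 (NM_009811), an executioner of apoptosis that cuts lamins, was higher in BL6 than in BALB. The ratio was 0.88 for BL6 1 against DBA 2, −0.23 for DBA 1 against BL6 1 and −0.02 for BALB 2 against BL6 2. The other 5 arrays, without BL6, lay between 0.37 and 0.52. Removal of the dye effect of 0.40 placed the BL6 animals at 0.47 and 0.31 and the other 8 between −0.20 and −0.01. For Casp6 each BL6 animal therefore lay above all other animals of its chain.

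Strain levels of Casp6 were 0.41 in BL6 (SE 0.12) and from −0.12 to −0.08 in the other strains. The difference of BL6 from BALB was 0.53 (SE 0.13, 95% interval 0.23 to 0.83), 1.44-fold, with an adjusted p of 0.0890 from limma. It was 0.42 in the smaller chain, 0.59 in the larger chain and 0.48 in the combination free of dye. BL6 differed from DBA by 0.50 and from BL10 by 0.53, neither past the threshold (adjusted p = 0.361 and 0.307 from limma). The spots of Casp6, which correlated at 0.696, gave 0.56 and 0.49 alone, each with an adjusted p above the threshold (0.158 and 0.165 from limma). The call was lost, with the direction kept, when the shared values were entered under either label (0.48 and 0.53) or both (0.40, adjusted p = 0.280 from limma). It was also lost without either CBA animal (0.52), either BL10 animal (0.51), BL6 2 (0.67) or BALB 1 (0.44), with adjusted p-values from limma of 0.104 to 0.470. It held without BL6 1, DBA 1 or BALB 2, fits with 1 residual degree of freedom in which 2692, 3072 and 3615 of all 7697 features passed for this pair, against 348 with all 8 arrays.

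BL6 was above the mean of the strains for 8 of the 9 caspase features, with a median level of 0.13, where 55.7% of all features were above it in BL6 with a median of 0.03. The exception was Casp2. The count was 6 of 9 without a dye term and 9 of 9 with all 10 arrays or with the shared values under either label. An unadjusted p under 0.05 was reached by 4 of the 9 (44.4%, against 14% of all features) and the threshold by none.

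Casp9 (NM_015733), which is activated on the apoptosome, stood at 0.49 in BL6, 0.06 in BALB, 0.02 in DBA, −0.22 in BL10 and −0.35 in CBA. Its ratios were −0.51 for BALB 2 against BL6 2, −0.39 for DBA 1 against BL6 1 and 0.44 for BL6 1 against DBA 2, and its dye effect was 0.01. The BL6 animals at 0.62 and 0.40 were the highest of their chains, and the others ran from −0.40 to 0.09. BL6 differed from the mean of the other strains by 0.62 (SE 0.15, adjusted p = 0.214 from limma), and the spots alone gave 0.66 and 0.54. Its level with all 10 arrays was 0.25 in BL6 and −0.01 in CBA. Casp8 (AF067834), the initiator at death receptors, was 0.41 in BL6 and between −0.29 and 0.04 in the others, with an unadjusted p of 0.0993.

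Casp1 (NM_009807), which processes interleukin-1β, and Casp2 (NM_007610) were highest in CBA instead. Casp1 stood at 0.40 in CBA, 0.13 in BL6, −0.13 in BL10, −0.14 in BALB and −0.26 in DBA, with an adjusted p of 0.316 from limma. The CBA animals at 0.34 and 0.29 lay above the rest of their chains. The 2 BL6 animals at 0.21 and −0.06 and the 2 DBA animals at −0.47 and −0.11 spread widely. With all 10 arrays BL6 was the highest strain for Casp1, at 0.29, and CBA stood at 0.07. Casp2 stood at 0.49 in CBA, 0.14 in BL10, −0.03 in DBA, −0.21 in BL6 and −0.39 in BALB, with CBA animals at 0.46 and 0.53 and BALB animals at −0.44 and −0.40. Its duplicate spots correlated at −0.30, its level in CBA was −0.03 with all 10 arrays, and its adjusted p was 0.345 from limma. Casp4, Casp12, Casp14 and Casp8ap2 had ranges of 0.09 to 0.63 and unadjusted p-values of 0.110 to 0.977. The narrowest range of all 58 features was that of Casp12.

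Levels in single animals are plotted for the 10 features with the smallest p.

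**Figure D3:**
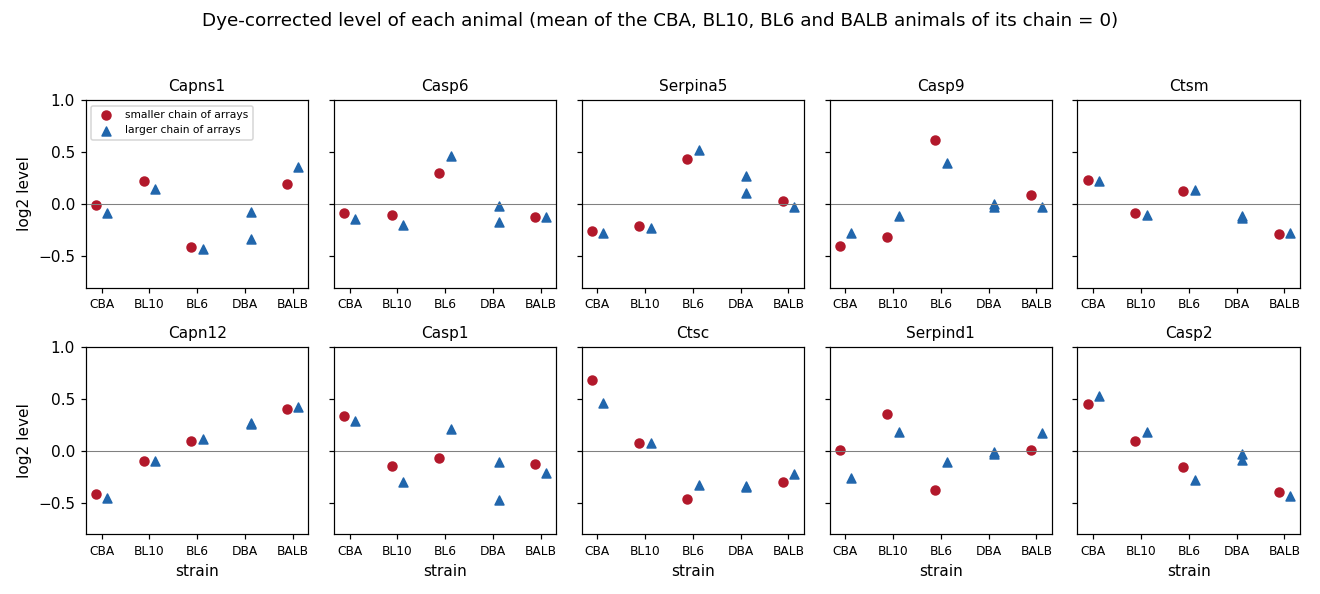
Dye-corrected log2 levels of the 10 animals for the 10 features with an unadjusted p under 0.05 between strains, relative to the mean of the CBA, BL10, BL6 and BALB animals of the same chain of arrays (circles, smaller chain; triangles, larger chain). In each chain the BL6 animal is lowest for Capns1, at −0.41 and −0.43, and highest for Casp6, at 0.31 and 0.47.

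Cathepsins leaned to CBA in the 8 arrays. The lean turned the other way without a dye term and was smaller or absent with the identical arrays entered. Of 15 cathepsins, 13 were above the mean in CBA and 12 were highest there, where 44% and 29.2% of all features were, and the median level in CBA was 0.27, against −0.04 over all features. Ctsk and Ctsz were the exceptions, with CBA the lowest strain for both. The dye effect was below 0 for 13 of the 15 (median −0.31). Because CBA is in Cy5 on both of its arrays, its level and the dye effect are estimated together. Across features they correlated at r = −0.583 over all 7697 and at r = −0.743 over the 15 cathepsins, as estimates from the same 8 arrays. Without a dye term, 3 of 15 cathepsins were above the mean in CBA, with a median of −0.12, against 0.02 over all features. With all 10 arrays as labelled the count was 8 of 15 and the median 0.02. With the shared values entered once it was 11 and 0.08 as BL6 2 against CBA 1, and 7 and −0.00 as BALB 1 against CBA 2, settings that were tallied after the values were seen. Leaving out single animals from the 8 arrays kept it, with 11 to 13 of 15 above the mean and medians of 0.23 to 0.34, and it was 0.10 with equal array spreads and 0.14 with quantile normalization.

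The cathepsin levels in CBA are drawn under each of these settings.

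**Figure D4:**
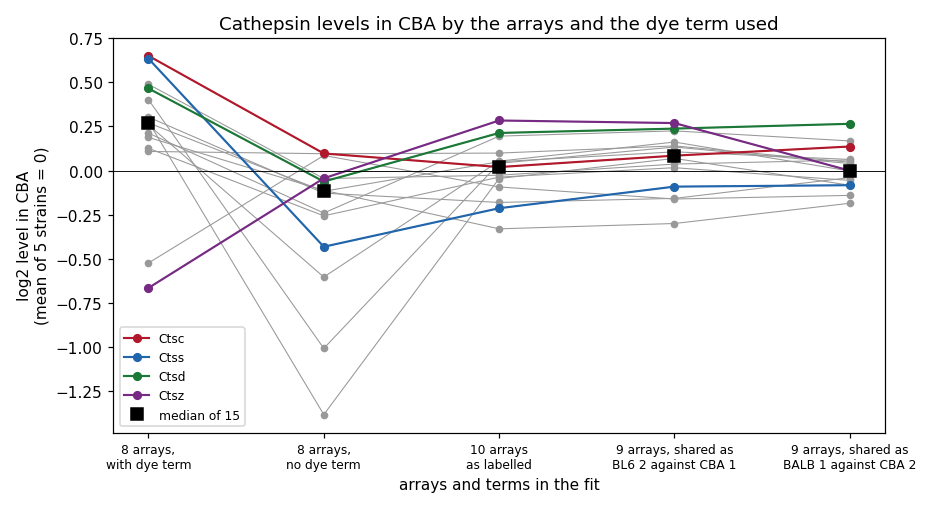
Log2 level in CBA, relative to the mean of the 5 strains, of the 15 cathepsins (lines) and their median (squares) for the 8 arrays with and without a dye term, all 10 arrays, and the shared values entered once under either label. The median falls from 0.27 to −0.12, 0.02, 0.08 and −0.00.

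Ctsc (NM_009982), cathepsin C, which activates the serine proteases of granules, had the highest CBA level of the class at 0.65 (SE 0.17), followed by BL10 at 0.16, BALB at −0.20, DBA at −0.30 and BL6 at −0.31. Its ratios for CBA against BL10 were 0.23 and 0.00, close to 0, and the others ran from −0.49 to 0.05. With the dye effect of −0.38 removed, the CBA animals stood at 0.68 and 0.46, each above all others of its chain. CBA differed from the mean of the other strains by 0.81 (SE 0.21, adjusted p = 0.383 from limma). With all 10 arrays the CBA level of Ctsc was 0.02.

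Ctss (NM_021281), cathepsin S, known from macrophages and other antigen-presenting cells, stood at 0.63 in CBA (SE 0.18), 0.10 in BL10 and from −0.26 to −0.24 in the other strains. All 8 of its ratios were below 0, from −0.89 to −0.16, so the high level in CBA appears only after a dye effect of −0.72 is removed. The CBA animals then stood at 0.61 and 0.56 and all others between −0.41 and 0.05. The spots of Ctss gave CBA levels of 0.33 and 0.96, and with all 10 arrays the level was −0.21. Of the macrophage markers, 9 of 12 listed were measured, and they had a median level of 0.14 in CBA. C1qa was at 1.23 and Cd68 at 1.05 in CBA, with adjusted p-values of 0.154 and 0.158 from limma. The others ran from −0.31 to 0.33 in CBA, with Cd14, Lyz1, C1qc and Lyz2 above 0 and C1qb, Itgam and Adgre1 below. Their part in the cathepsin levels was not tested.

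Ctsd (NM_009983), the main aspartic protease of the lysosome, stood at 0.46 in CBA, 0.15 in BL10, −0.16 in DBA, −0.20 in BALB and −0.25 in BL6, with CBA animals at 0.50 and 0.35 and an adjusted p of 0.492 from limma. Its spots correlated at −0.26 and gave CBA levels of 0.06 and 0.89. With all 10 arrays Ctsd stayed above the mean in CBA at 0.21, and with the shared values under either label at 0.24 and 0.26. Without a dye term the CBA level of Ctsd was −0.06. Ctsl (NM_009984), cathepsin L, whose mRNA rises in wasting muscle, was lowest in DBA at −0.37 and between −0.12 and 0.19 elsewhere. The DBA animals differed for Ctsl, at −0.22 and −0.70, and the ratio of DBA 2 against BALB 1 was −1.10. The CBA level of Ctsl turned from 0.19 to −0.33 with all 10 arrays, and with the shared values under either label to −0.30 and −0.19. Ctsz (AF136277), cathepsin Z or X, stood at 0.64 in BL6, 0.31 in DBA, 0.01 in BALB, −0.29 in BL10 and −0.66 in CBA, with BL6 animals at 0.58 and 0.93 and CBA animals at −0.30 and −0.89. With an SE of 0.30 in CBA its adjusted p was 0.407 from limma, and with all 10 arrays CBA stood at 0.28. Ctsk (NM_007802), the collagenase of osteoclasts, was lowest in CBA at −0.52, which became −0.09 with all 10 arrays, −0.16 and −0.14 with the shared values under either label, and 0.09 without a dye term.

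Cathepsins M, J and R (Ctsm, Ctsj, Ctsr) belong to a cluster of placental genes on chromosome 13 of rodents, and their ratios were below 0 on every array. Ctsm (AF202528) had the smallest p of the class, 0.0268, with 0.26 in CBA, 0.16 in BL6, −0.07 in BL10, −0.10 in DBA and −0.25 in BALB. The CBA animals stood at 0.24 and 0.23 and the BALB animals at −0.27 and −0.29 for Ctsm, but its dye effect of −0.59 exceeded its strain range of 0.51. The dye effect was −1.14 for Ctsj and −0.97 for Ctsr, larger than their strain ranges of 0.56 and 0.69, and that of Ctsj was the largest of the 58 features. Since these genes are close paralogs and the probe sequences were not used here, hybridisation between them cannot be told apart. Ctsa, Ctse, Ctsf, Ctsg, Ctsh and Ctsw had ranges of 0.25 to 0.75 and unadjusted p-values of 0.150 to 0.557.

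Serpins had median levels between −0.04 and 0.02 in the strains. Of 20 features, 9 were above the mean of the strains in CBA, 11 in BL10, 10 in BL6, 10 in DBA and 7 in BALB. The shares of all features were 44%, 39.8%, 55.7%, 57.9% and 50.2%. BL6 was the highest strain for 9 of the 20, where it was for 31.4% of all features. At an unadjusted p under 0.05 from limma, 4 of the 20 were higher in BL6 than the mean of the other strains, where 8.38% of all features were. In the F test, an unadjusted p under 0.05 was reached by 2 of the 20 (10%, against 14% of all features) and the threshold by none. Serpina5 (NM_172953), the protein C inhibitor, stood at 0.44 in BL6, 0.14 in DBA, −0.04 in BALB, −0.25 in BL10 and −0.30 in CBA. The BL6 animals, at 0.53 in the larger chain and 0.44 in the smaller, were the highest of their chains. The DBA animals of the larger chain stood at 0.11 and 0.27. BL6 differed from BALB by 0.48 (SE 0.13, 95% interval 0.19 to 0.78), just outside the threshold with an adjusted p of 0.101 from limma, and from the mean of the other strains by 0.55 with an adjusted p of 0.226. Duplicate spots of Serpina5 correlated at 0.901, and with all 10 arrays its BL6 level was 0.17 and its CBA level turned to 0.10. Serpina5 was the third feature to pass for a pair when only features with agreeing spots were kept. That made 3 of 26 (11.5%), near the 10.9% of all 4104 features kept.

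Serpina3n (NM_009252), an acute-phase inhibitor of the antichymotrypsin family, lies in the same serpin cluster on chromosome 12 and had levels close to those of Serpina5: 0.43 in BL6, 0.14 in DBA, −0.05 in BALB, −0.23 in BL10 and −0.28 in CBA. Its ratios were above 0 on all 8 arrays under a dye effect of 0.55, and its adjusted p was 0.411 from limma. The α1-antitrypsin genes Serpina1d and Serpina1e of that cluster, near-identical copies whose signals cannot be told apart without the probes, had their highest level in BL6 too, at 0.23 and 0.27, with unadjusted p-values of 0.396 and 0.325. Serpina6, the corticosteroid-binding globulin, did not share it, at −0.10 in BL6. The 10 features of liver and plasma proteins, which stand for 7 genes, had a median level of 0.16 in BL6, against 0.03 over all features. Hp went the other way, at −0.42 in BL6 and 0.97 in CBA, and the others were above 0 in BL6. The part of these proteins in the serpin levels was not tested.

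Serpind1 (NM_008223), heparin cofactor II, was highest in BL10 at 0.29 and lowest in BL6 at −0.21, with BL10 animals at 0.35 and 0.18 and BL6 animals at −0.10 and −0.37. BL10 differed from the mean of the other strains by 0.36 (SE 0.13, adjusted p = 0.641 from limma). Its BL10 level changed little with the arrays used, at 0.27 with all 10 arrays and at 0.26 and 0.30 with the shared values under either label, though CBA at −0.19 was then the lowest strain under the label of BL6 2. The dye effect for Serpind1 was −0.08. Its duplicate spots correlated at 0.567 and gave BL10 levels of 0.23 and 0.35 alone. BL6 stood at −0.04 and −0.37 and CBA at −0.36 and 0.15, so the spots differed on the lowest strain. Serpinb6a (NM_009254), an intracellular inhibitor, stood at 0.25 in BALB, 0.12 in BL10, −0.02 in DBA, −0.14 in BL6 and −0.21 in CBA, with an adjusted p of 0.403 from limma. Serping1, the C1 inhibitor, was 0.33 in CBA and −0.41 in BL6, and Serpinf1, known as PEDF, was 0.32 in CBA and −0.36 in BALB, with unadjusted p-values of 0.172 and 0.114.

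For the genes with 2 features, the strain levels were not the same in both. None of these features passed between strains, with unadjusted p-values of 0.145 to 0.654 from limma's moderated F test. Their duplicate spots correlated at 0.163 to 0.621, so probe differences cannot be told from noise. For Serpinb2, the plasminogen activator inhibitor type 2, the feature NM_011111 had a range of 0.92, from −0.56 in CBA to 0.37 in BL6, and the feature AJ000343 a range of 0.21, from −0.08 in BALB to 0.13 in BL6. For Serpinh1, the collagen chaperone Hsp47, the feature J05609 ran from −0.24 in CBA to 0.14 in BL6 and the feature NM_009825 from −0.08 in DBA to 0.11 in BL10. Neither gene has probes that agree on the order of the strains. Serpinb3a, Serpinb5, Serpinb9, Serpinb9b, Serpinf2, Serpini1 and Serpini2 had ranges of 0.25 to 0.68 and unadjusted p-values of 0.154 to 0.933.

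Both cystatins were highest in BL6 and lowest in DBA, by small amounts. Cstb (NM_007793), the cytosolic inhibitor of cathepsins, stood at 0.22 in BL6, 0.06 in BALB, 0.03 in CBA, −0.09 in BL10 and −0.22 in DBA, with an adjusted p of 0.536 from limma. The animals of a strain overlapped with those of the others for Cstb, with 0.24 and −0.29 in CBA. BL6 differed from DBA by 0.44 (95% interval 0.03 to 0.85, adjusted p = 0.507 from limma), and all other pairs had an unadjusted p above 0.05. The study reported no strain difference for cystatin B, by array or by qPCR, and used it as a reference in its qPCR. Cst3 (NM_009976), the secreted cystatin C, had levels from −0.07 to 0.13, animals from −0.11 to 0.13 and an adjusted p of 0.773 from limma. Duplicate spots correlated at −0.52 for Cst3 and at 0.461 for Cstb.

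Agreement of duplicate spots set a limit on the whole group. The spots correlated at 0.5 or more over the arrays for 26 of the 58 features (44.8%, against 53.3% of all features) and below 0 for 11 (19%, against 16%). The ratio had the same sign on all 8 arrays for 15 (25.9%, against 34.5%), and the dye effect exceeded the strain range for 10 (17.2%, against 24.4%). Spots agreed for 6 of 12 calpain features, 5 of 9 caspases, 6 of 15 cathepsins, 9 of 20 serpins and 0 of 2 cystatins.

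Genes that work with these proteases were taken from lists and counted in the same way. At an unadjusted p under 0.05 were 4 of 34 lysosome and autophagy features, 4 of 35 apoptosis regulators, 3 of 35 serpin targets and coagulation factors, 2 of 22 other protease inhibitors and 2 of 13 genes linked to calpain in muscle, and none of them passed at an FDR of 10%. These shares run from 8.57% to 15.4%, near the 14% of all features. Among the lysosomal genes, Lamp1, a membrane glycoprotein, stood at −0.79 in BL6 and 0.45 in CBA, Psap, the saposin precursor, at −0.70 and 0.32, and Ppt1, a thioesterase, at −0.43 and −0.16. In the apoptosis list, Cycs, cytochrome c, stood at −0.63 in BL6 and 0.49 in BALB, Bcl2l11 at 0.41 in CBA and −0.43 in BALB, and Bik at 0.47 in BL6 and −0.51 in CBA. Their adjusted p-values from limma were 0.154 to 0.333.

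Of the serpin targets, St14, the membrane protease matriptase, stood at 0.54 in CBA and −0.46 in BALB, F7 at 0.45 and −0.25, and Tmprss2 was highest in BL6 at 0.39. Timp2, an inhibitor of matrix metalloproteases, led the other inhibitors with a range of 1.85 and −0.85 in BL6, its lowest strain (adjusted p = 0.149 from limma), and Cst7, cystatin F, stood at 0.56 in CBA. Flnc, the muscle filamin that calpain cuts, stood at −0.61 in BL6 and 0.45 in BALB, with an adjusted p of 0.154 from limma, while Des was at −0.18 and 0.43. Of 11 muscle fibre markers, 5 had an unadjusted p under 0.05 and 1 passed the threshold, Pvalb. The list median was 0.04 in BL6 and 0.39 in BALB. Mb, Tnni2 and Actn3 were below 0 in BALB, at −0.08, −0.06 and −0.07, and the other fibre markers were above 0 there. Of 7 fibroblast features the median was −0.47 in BL6 and 0.54 in CBA. The Pdgfra features went the other way in CBA, at −0.28 and −0.14, and stood at 0.39 and −0.02 in BL6. The other fibroblast features were above 0 in CBA and below 0 in BL6. The part of fibre or fibroblast content in the levels of Capns1 or of the cathepsins was not tested.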

How the data were processed

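Per the labels and the methods, the authors extracted spots with GenePix Pro 3.0, subtracted local background and normalized by VSN in R. The deposited values were taken as natural log ratios of Cy5 over Cy3, from the VSN method and the dyes in the labels, for 15552 spots on each of 10 arrays. Neither brightness nor the spots marked by GenePix were used here, so depth and signal over background are unknown and precision is limited by the number of arrays. Duplicate spots, 648 places apart, were averaged to 7776 features, 80 features of a control oligonucleotide were merged to 1, and the 7697 ratios were turned to log2 and centred by array. Zero or missing values numbered 0.

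The 8 arrays were fitted in limma 3.58.1 (R 4.3.3) with terms for strain and a dye term for each feature. The animal was a random effect with 1 ratio of animal to array variance (0.446 by restricted maximum likelihood). The fit left 3 residual degrees of freedom, to which the shared spread added 6.13. P-values were adjusted over all 7697 features by the Benjamini-Hochberg procedure. This was done for each comparison alone, with no further adjustment over the pairs of strains. Levels of animals used MASS 7.3.60.0.1, and figures Python 3.11.15 with matplotlib 3.10.9. P-values rest on the spread of the 8 arrays about the fit and on the shared spread. With 2 animals per strain, the spread between animals was not estimated for each feature. The steps were tested on simulated data.

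Strain levels, in full or in part, were given for features past an FDR of 10% and for those with an unadjusted p under 0.05. They were also given for the 3 smallest p of each class, and for Cstb, Cst3, Cast, Capn3, Ctsl and Ctsd. Ratios on arrays, levels of animals and values of single spots were given for some of these only. Of each gene list, up to 3 features with the smallest p were named. Other features were added after their values were seen. The members, lists and rule were chosen with earlier results of these data known. Alternatives covered centring, array spread, quantile normalization, either spot, spot agreement, the dye term, the animal effect, shared spread, robust eBayes, the identical arrays, an FDR threshold of 5% and the omission of single animals. Gene symbols came from the annotation of the array, promoters and positions from RefSeq on GRCm38.p6.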

Additional observations from a re-analysis of the deposited data

How the results depend on the processing

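Under 23 alternatives, the 2 called pairs kept their direction. Capns1 kept its call in 10 and Casp6 in 7, and over all 23 the differences ran from −1.10 to −0.45 and from 0.40 to 0.75. Against 2 features called in a pair, 1 was called with equal array spreads and with the shared values as BL6 2 against CBA 1 or as BALB 1 against CBA 2, each time Capns1. None was called with quantile normalization, the first spot alone, the second spot alone, no dye term, a test without shared spread, all 10 arrays or an FDR of 5%, which gave 0. Against 10 features with an unadjusted p under 0.05, there were 5 with the first spot alone, 0 without a dye term, 5 with all 10 arrays, and 6 and 3 with the shared values under the labels of BL6 2 and BALB 1. Leaving out an animal gave 0 to 34 features past the threshold between strains, 2 to 34 at an unadjusted p under 0.05, 0 to 35 for a strain against the others and 0 to 43 in a pair. The highest counts were without DBA 1 (34 between strains), BALB 2 (34), BL6 1 (25) and BALB 1 (12), fits with 1 or 2 residual degrees of freedom in which 4377, 4172, 3002 and 1402 of all 7697 features passed as well. The fit without DBA 2 could not be made, since the dye effect is then not estimable. Levels in CBA that were not called did turn, such as Ctsz from −0.66 to 0.28 and Ctss from 0.63 to −0.21 with all 10 arrays. No paired analysis was possible because the arrays already set animals of different strains against each other and the animal numbers mark no shared litter, batch or day. Brightness over background, which would show which ratios come from dim spots, is not part of the values used here.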
